A study of Mus musculus with 4 samples.

Results

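Retnla-high cells were the barcodes of the 4 droplet libraries that carried at least 10 Retnla UMIs per 10000 UMIs, had at least 500 genes and at most 10% mitochondrial UMIs, and held at most 2 Ccr7 UMIs and at most 1 UMI of Xcr1 and Clec9a together. They numbered 584 of the 26882 barcodes that passed the same quality filter. A UMI is 1 captured transcript molecule, and Retnla (resistin-like molecule alpha, also called Fizz1) is a small secreted protein. The caps on Ccr7, a marker of mature dendritic cells, and on Xcr1 and Clec9a, markers of type 1 conventional dendritic cells (cDC1), took off 49 Ad-MEM40 and 13 Ad-Null barcodes that passed the Retnla cutoff. Since the rule used Retnla and the caps, the levels of Retnla, Ccr7, Xcr1 and Clec9a in these cells are a description.

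In mouse macrophages Retnla is a classical product of alternative activation, which interleukin-4 and interleukin-13 drive through STAT6, together with C/EBP factors. Retnla-expressing cells are known from the peritoneal and pleural cavities, the lung, fat and helminth infection, and monocytes can give rise to them. Monocyte-derived cells in tumors can carry both CD11c and MHC class II, so a sort on these proteins collects them together with conventional dendritic cells.

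The libraries came from B16-F10 melanomas, a mouse melanoma cell line that makes pigment, grown under the skin of C57BL/6 mice from 500000 inoculated cells and injected with adenovirus on day 12. Ad-MEM40 tumors received the adenovirus that the labels call ISF35, which carries a membrane-stable CD40 ligand. Ad-mIFNB tumors received an adenovirus for mouse interferon beta, Ad-COMBO tumors received both of these viruses, and Ad-Null tumors received the NULL adenovirus. Each treatment was 1 library of CD11c+ MHC-II+ sorted cells pooled from 3 tumors after the blood had been flushed out, and the time from injection to harvest is not given in the sources used here. With 1 library per treatment no difference between treatments had a replicate check, and no test across treatments was made.

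The Ad-MEM40, Ad-mIFNB, Ad-COMBO and Ad-Null libraries held 15656, 1810, 671 and 8745 filtered barcodes, of 18185, 2076, 954 and 11308 deposited ones, where the labels state loading for up to 10000 cells. Total UMIs per library were 186975859, 29213335, 10584385 and 166077463. Retnla-high cells had a median of 12127 UMIs and 3257 genes in Ad-MEM40 and of 21055.5 UMIs and 4206 genes in Ad-Null. The other barcodes of these libraries had medians of 9460 and 15224 UMIs. Filtered barcodes shared by 2 libraries numbered at most 41, between Ad-MEM40 and Ad-Null, and no Retnla-high barcode was shared. Doublets were left in for the main values. Scrublet calls fell on 44 of the Ad-MEM40 and 14 of the Ad-Null Retnla-high cells, which is 11.7% and 6.86% of them, beside 12.5% and 6.998% of all filtered barcodes.

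Retnla-high cells were present at a like share in Ad-MEM40 and Ad-Null tumors and nearly missing from both libraries with interferon beta. They made up 2.41% of the Ad-MEM40 barcodes (377 of 15656; exact Clopper-Pearson 95% interval 2.17 to 2.66%). In Ad-mIFNB they made up 0.166% (3 of 1810; 0.0342 to 0.484%), and in Ad-COMBO there were 0 of 671, which by the count of 3 allows a share of up to 0.447%. In Ad-Null they made up 2.33% (204 of 8745; 2.03 to 2.67%). The intervals of Ad-MEM40 and Ad-Null overlapped, and those of both interferon beta libraries lay below them. All intervals here cover counting error only and say nothing of the spread between tumors.

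**Figure D1:**
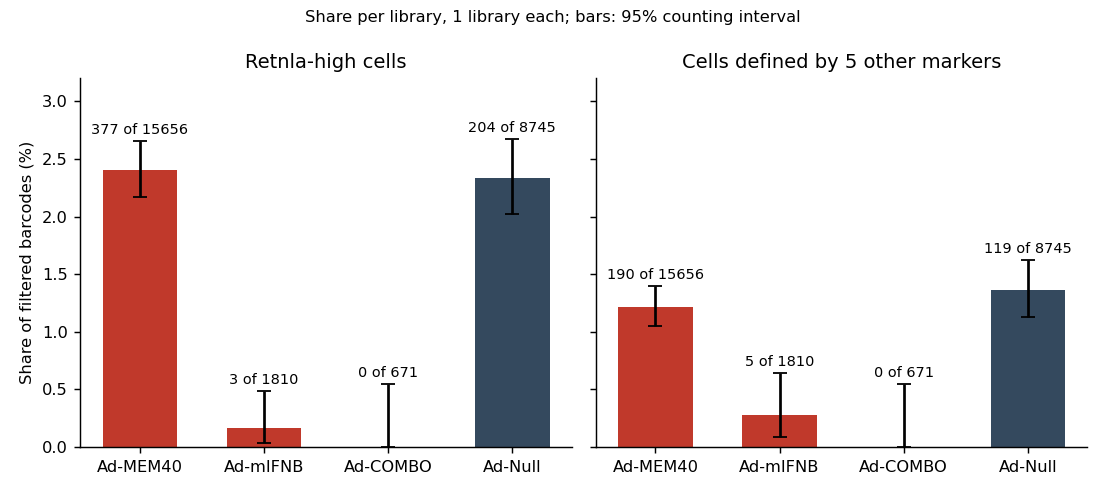
Share of filtered barcodes (%, y axis) that were Retnla-high (left) or passed a rule on 5 other marker genes that leaves Retnla out (right), for each library, with the exact 95% counting interval. By both rules the Ad-mIFNB and Ad-COMBO shares lie below those of Ad-MEM40 and Ad-Null.

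The RNA of Retnla itself followed the cells. Over all filtered barcodes Retnla stood at 266 CPM (UMIs per 1000000) in Ad-MEM40, 13.6 CPM in Ad-mIFNB, 0.923 CPM in Ad-COMBO and 206 CPM in Ad-Null. The Ad-COMBO value rests on 9 UMIs in the whole library. A barcode with at least 1 Retnla UMI was found in 17.5% of the Ad-MEM40, 1.44% of the Ad-mIFNB, 0.596% of the Ad-COMBO and 17.8% of the Ad-Null barcodes. In cDC1 barcodes of Ad-MEM40 and Ad-Null, which should lack the gene, the same share was 17.4% and 16.9%. These were deeper, at medians of 15450 and 25085.5 UMIs against 9460 and 15224 in barcodes that were not Retnla-high. The shares in these 2 libraries therefore do not count Retnla-low cells, and their part of background was not tested. Barcodes under the same caps with 5 to 10 Retnla UMIs per 10000 numbered 192 and 55. They had Fn1 at 944 and 946 CPM, against 108 and 111 CPM in all barcodes that were not Retnla-high.

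A second count asked whether cells of this kind remained without Retnla. It took barcodes under the same caps with at least 3 of Lyz1, Fn1, Ccl24, Ear2 and Aldh1a2 detected and their sum at or above 32.3 per 10000 UMIs, the median of the Ad-Null Retnla-high cells. The Ad-MEM40 library held 190 such cells, 1.21% of its barcodes (1.05 to 1.40%), of which 138 were also Retnla-high. The Ad-mIFNB library held 5, 0.276% (0.0898 to 0.643%), of which 1 was Retnla-high, and the Ad-COMBO library held 0 of 671. The Ad-Null library held 119, 1.36% (1.13 to 1.63%), of which 94 were Retnla-high. The 5 genes were picked as markers from these same libraries, so this count is not independent of the first.

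The 3 Retnla-high cells of the Ad-mIFNB library did not look alike. Their Retnla UMIs were 32, 109 and 59, of 11974, 52060 and 52466 UMIs. The cell with 109 Retnla UMIs also had 104 Fn1 and 62 Ear2 UMIs and no C1qa UMI, whereas the cell with 59 had 2 Fn1 and 164 C1qa UMIs. Lyz1 had 0, 0 and 3 UMIs in them. Of the Retnla-high cells in Ad-MEM40 and Ad-Null, 53.3% and 59.3% had a Lyz1 UMI. Isg15, an interferon-induced ubiquitin-like protein, had 11, 20 and 60 UMIs. With 3 cells no level is given for this library.

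Retnla is a gene of mouse chromosome 16 (GRCm38, 48842551 to 48844461, plus strand). Its promoter is shown because interleukin-4 and C/EBP control of the gene is classical and because Retnla sets the membership. The RefSeq window of GRCm38.p6, chr16:48842359-48842658, plus strand, runs from 250 bases before to 50 bases after the RefSeq start at 48842609, which lies inside the gene as GENCODE, the source of the coordinates above, places it. Capitals mark TTC and GAA set 4 bases apart, the palindrome that STAT6 favours, and TTGCNNAA, a C/EBP-like pattern, searched on both strands.
Retnla promoter: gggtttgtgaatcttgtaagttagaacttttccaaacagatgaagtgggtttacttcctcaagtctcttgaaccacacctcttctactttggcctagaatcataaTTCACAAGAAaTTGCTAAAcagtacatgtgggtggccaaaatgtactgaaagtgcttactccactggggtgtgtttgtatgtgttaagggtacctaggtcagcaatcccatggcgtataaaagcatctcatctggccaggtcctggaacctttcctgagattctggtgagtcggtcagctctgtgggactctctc
The window held 1 match of each pattern, starting 145 and 134 bases before the RefSeq start and not overlapping. Among the RefSeq promoter windows of this length, 6.95% held the STAT6-like palindrome, 10.8% held TTGCNNAA and 0.840% held both. Of the 30 genes highest in Retnla-high cells, 18 had a window, and TTGCNNAA lay in those of 6 (Ear2, Gda, Lyz1, Pdlim1, Retnla and Rras2), against 12.2% of all genes with a window. The palindrome lay in that of Retnla alone among the 18, against 8.01% of all genes. A match describes letters and shows no binding.

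Within the cells Retnla ran over a wide range with no gap at the cutoff. Its median was 37.8 UMIs per 10000 in Ad-MEM40 cells (quartiles 15.4 and 88.1, highest 456) and 35.3 in Ad-Null cells (quartiles 16.5 and 77.4, highest 316). Just inside the cutoff, from 10 to 12 per 10000, were 46 Ad-MEM40 and 20 Ad-Null cells, and just outside it, from 8 to 10, were 50 and 19 barcodes. The cells just inside were shallow, with medians of 1349.5 and 948.5 UMIs. A single Retnla UMI carried 29 Ad-MEM40 and 20 Ad-Null cells over the cutoff, and 25 and 16 of these had no UMI of the 5 other markers. The cells with at least 5 Retnla UMIs, 314 in Ad-MEM40 and 172 in Ad-Null, held 99.7% and 99.8% of the cells' Retnla UMIs, and 73.6% and 87.8% of them had at least 3 of the 5 other markers.

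Most of the Retnla RNA of both libraries lay in these cells. Retnla-high cells held 82.1% of all Retnla UMIs of the Ad-MEM40 library and 88.7% of those of the Ad-Null library, while holding 2.83% and 2.82% of all UMIs. After thinning each cell to 2000 UMIs, 99.0% and 99.4% of Retnla-high cells had a Retnla UMI, against 2.66% and 1.97% of cDC1 barcodes, taken as those with at least 5 UMIs of Xcr1 and Clec9a. Before thinning, 17.4% and 16.9% of the cDC1 barcodes had a Retnla UMI, at median depths of 15450 and 25085.5 UMIs.

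**Figure D2:**
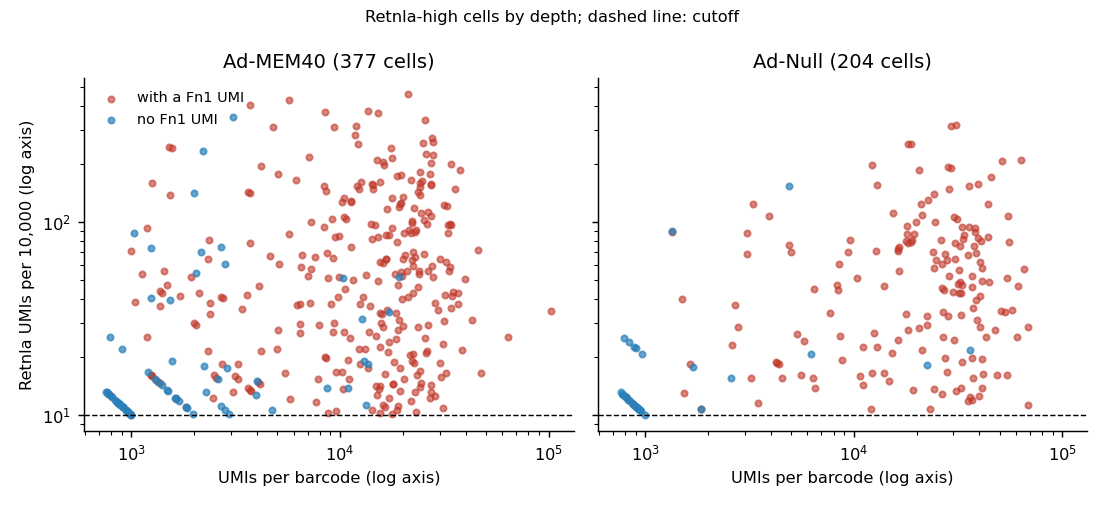
UMIs per barcode (x axis, log scale) and Retnla UMIs per 10000 (y axis, log scale) of each Retnla-high cell in Ad-MEM40 (left) and Ad-Null (right), coloured by whether the cell had a Fn1 UMI. The diagonal line of points at the lower left is the 29 and 20 cells with 1 Retnla UMI, most of them without Fn1.

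Apart from Retnla, the genes that stood highest over the other barcodes in both libraries included Lyz1, Fn1, Ccl24, Fcrls, Aldh1a2, Cd2 and Ear2. Of 3195 genes counted in both, 385 were at least 1.5-fold higher in Retnla-high cells than in the other barcodes of their own library in both (12.1%) and 303 lower in both (9.48%). In Ad-MEM40 alone 12.9% of counted genes were higher and 10.5% lower, and in Ad-Null 15.8% and 12.6%. The genes named next are the 30 with the largest difference in the library where it was smaller, so their direction is set by the choice.

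Lyz1, the second mouse lysozyme gene, which cleaves bacterial cell walls, was at 1142 CPM in Retnla-high cells against 30.04 CPM in other barcodes of Ad-MEM40, and at 1532 against 19.5 CPM in Ad-Null. Ear2, an eosinophil-associated ribonuclease that mouse macrophages also make, was at 301 against 25.8 CPM in Ad-MEM40 and 589 against 38.7 CPM in Ad-Null. Lyz2, the general myeloid lysozyme, was also higher, at 8485 against 2410 CPM in Ad-MEM40 and 8455 against 1319 CPM in Ad-Null. Lyz1 was the more restricted of the 2 lysozymes: Retnla-high cells held 52.5% of its UMIs in Ad-MEM40 and 69.5% in Ad-Null. Lyz1 with Lyz2, and Ear2 with the other Ear genes, are near-identical copies whose reads may have been split in the counting, so their values are uncertain.

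Matrix and coagulation genes had 11 of 14 counted members higher in both libraries and 1 lower, beside the 12.1% and 9.48% of all genes. Fn1, fibronectin, was at 2468 against 108 CPM in Ad-MEM40 and 2546 against 111 CPM in Ad-Null. F13a1, the clotting factor XIII subunit that crosslinks fibrin, was at 424 against 82.2 CPM in Ad-MEM40 and 436 against 45.6 CPM in Ad-Null. F7, coagulation factor VII, was at 129 against 17.7 CPM and 117 against 22.6 CPM. F10, Thbs1 (thrombospondin 1), Vcan (versican), Timp2 and the matrix metalloproteinase Mmp19 were also higher, and Mmp19 reached 326 CPM in the cells of Ad-MEM40 and 220 CPM in those of Ad-Null. Spp1, osteopontin, was the lower member, at 66.5 against 198 CPM in Ad-MEM40 and 25.8 against 156 CPM in Ad-Null.

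**Figure D3:**
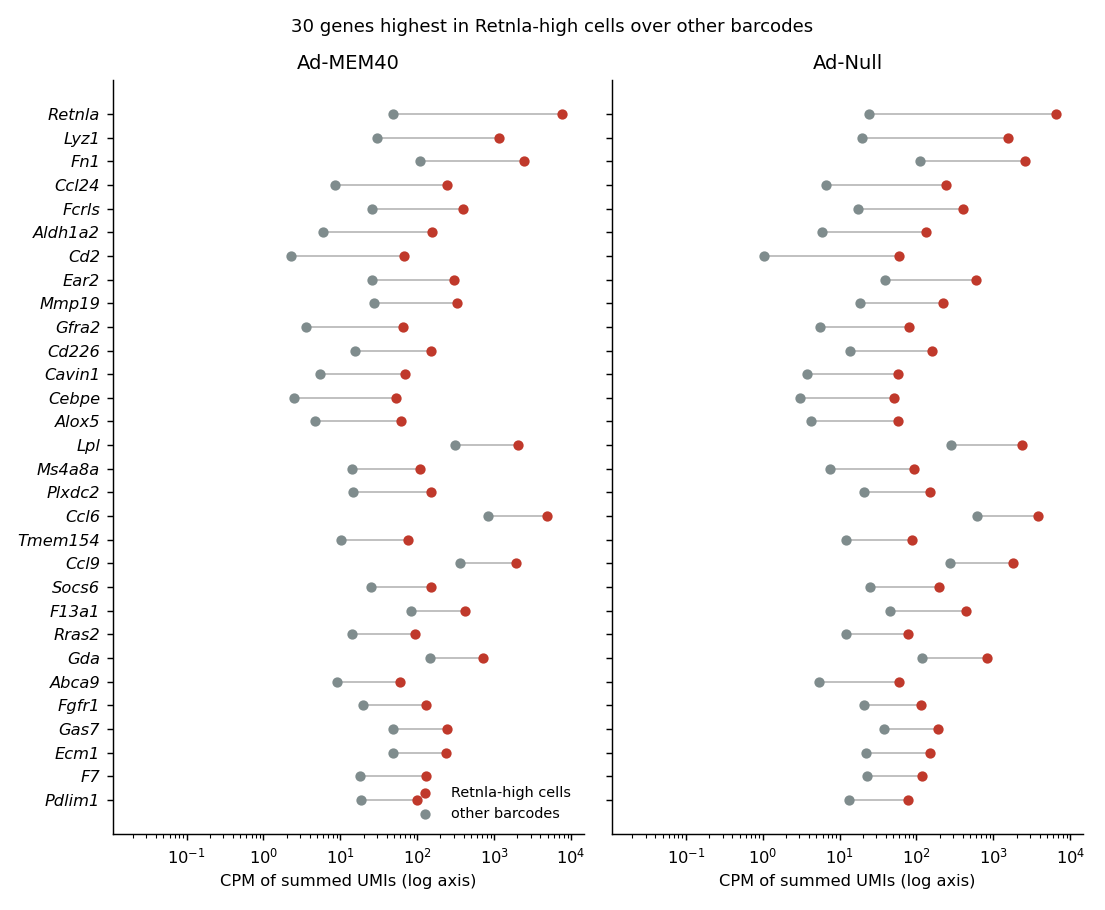
CPM of summed UMIs (log axis) in Retnla-high cells (red) and in all other filtered barcodes (grey) for the 30 genes named by the rule, in Ad-MEM40 (left) and Ad-Null (right). In both libraries each gene lies to the right in Retnla-high cells, and Retnla, Fn1, Ccl6, Lpl, Ccl9 and Lyz1 have the highest levels.

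Chemokines went both ways. Ccl24 (eotaxin-2), which attracts eosinophils through CCR3, was at 240 against 8.57 CPM in Ad-MEM40 and 242 against 6.60 CPM in Ad-Null. Ccl6 and Ccl9, macrophage chemokines of rodents that signal through CCR1, were at 4810 and 1913 CPM in the cells of Ad-MEM40, against 829 and 363 CPM in its other barcodes. In Ad-Null they were at 3813 and 1790 CPM, against 613 and 273 CPM. Of 17 chemokines counted, 6 were higher in both libraries and 9 lower, beside 12.1% and 9.48% of all counted genes. The neutrophil chemokines Cxcl1 and Cxcl2 were among the higher ones, with Cxcl2 at 5288 against 2142 CPM in Ad-MEM40 and 4697 against 1318 CPM in Ad-Null. The T cell chemokines Cxcl9 and Ccl5 were among the lower ones, with Cxcl9 at 117 against 496 CPM and 73.5 against 511 CPM.

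Metabolic and signalling genes of the same 30 included Lpl, lipoprotein lipase, at 2067 against 310 CPM in Ad-MEM40 and 2388 against 284 CPM in Ad-Null. Aldh1a2, which makes retinoic acid from retinal, was at 153 against 5.98 CPM and 131 against 5.89 CPM. Dhrs3 and Dhrs9, other retinoid dehydrogenases, were also higher: Dhrs9 was at 53.9 against 9.45 CPM in Ad-MEM40 and 49.0 against 11.1 CPM in Ad-Null. Alox5, which starts leukotriene synthesis, was at 61.2 against 4.73 CPM and 56.7 against 4.22 CPM. Cebpe, a C/EBP factor of late granulocyte development that some macrophages also express, was at 53.7 against 2.53 CPM and 50.6 against 3.07 CPM.

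Surface genes of the cells included Fcrls, an Fc receptor-like scavenger receptor, at 394 against 25.8 CPM in Ad-MEM40 and 402 against 17.5 CPM in Ad-Null. Cd226, an adhesion receptor known from peritoneal and pleural small macrophages, was at 149 against 15.7 CPM and 160.5 against 13.7 CPM. Il1rl1, the receptor of interleukin-33, was at a lower level, at 29.2 against 2.32 CPM and 30.9 against 3.51 CPM. Mrc1, the mannose receptor, was at 918 against 209 CPM and 960 against 180 CPM. Itgam, which encodes CD11b, was at 754 against 255 CPM and 860 against 216 CPM. Itgax, which encodes the CD11c of the sort, was at 41.2 against 70.5 CPM and 50.6 against 97.2 CPM.

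By the share of a gene's UMIs that fell in Retnla-high cells, measured over the 2 libraries, the 10 genes nearest to Retnla were Lyz1, Bcam, Cd2, Ccl24, Tenm4, Fn1, Aldh1a2, Cebpe, F5 and Fcrls. Bcam, an adhesion molecule for laminin, had 49.8% of its 303 UMIs there in Ad-MEM40 and 52.7% of its 224 in Ad-Null. Cd2, an adhesion receptor best known on T cells, had 46.8% and 62.1%. Fn1, with 31752 and 28836 UMIs in the libraries, had 39.98% and 39.99%.

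The alternative activation list was mixed. Of its 12 counted genes, 4 were higher in both libraries and 2 lower, beside 12.1% and 9.48% of all genes, and Ccl24 and Mrc1, described above, were among the 4. Arg1, arginase, was at 139 against 157 CPM in Ad-MEM40 and 227 against 137 CPM in Ad-Null. Chil3, the chitinase-like Ym1, had 0 UMIs in the cells of both libraries. Il4ra, the interleukin-4 receptor chain, was at 105 against 112 CPM and 90.3 against 90.8 CPM.

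In the lists of antigen presentation, interferon response and NF-kB targets no counted gene was higher in both libraries, and 4 to 12 genes a list were lower, beside 12.1% higher and 9.48% lower over all counted genes. MHC class II presentation genes had 4 of 10 lower in both libraries and none higher. H2-Ab1 was at 3314 against 5422 CPM in Ad-MEM40 and 3735 against 6383 CPM in Ad-Null. The direction depends on the cells compared. Of the groups described below, C1q-high cells had less H2-Ab1 than Retnla-high cells, at 3006 CPM in Ad-MEM40 and 2651 CPM in Ad-Null. Ly6c2-high cells had more, at 6237 and 5218 CPM, and so had Cd209a-high cells, at 9716 and 9805 CPM. MHC class I presentation genes had 8 of 16 lower and none higher, type I interferon response genes 9 of 19 lower and none higher, and CD40 and NF-kB targets 12 of 22 lower and none higher. Il1b, a main inflammatory cytokine, was at 209 against 749 CPM and 225 against 679 CPM. Il6, under 50 CPM in the Ad-MEM40 cells and so not among the 22, was at 28.6 against 7.22 CPM and 89.9 against 6.99 CPM. Il1rn, the natural antagonist of interleukin-1, went the other way, at 194 against 98.7 CPM and 194 against 66.7 CPM. Areg, the growth factor amphiregulin, was at 75.4 against 20.95 CPM and 101 against 25.01 CPM.

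The markers of other cell types bear on the label of these cells. The monocyte list gave 3 genes higher in both libraries (Ccr2, Vcan and F10) and 2 lower (Ly6c2 and Plac8) of 6 counted. Ccr2, the receptor that brings monocytes out of the marrow, was at 483 against 224 CPM in Ad-MEM40 and 819 against 245 CPM in Ad-Null. Ly6c2, the surface antigen of inflammatory monocytes, was at 11.3 against 104 CPM and 7.95 against 103 CPM. The data therefore show Ccr2 without Ly6c2, but both genes were also read in cells that are not monocytes. In cDC1 barcodes Ccr2 was at 229 and 261 CPM and Ly6c2 at 78.9 and 79.6 CPM. Cd209a-high cells, described below, had Ccr2 at 380 and 356 CPM. RNA levels in sorted cells do not show descent from monocytes, so the cells are named here by their rule. The macrophage list had 3 of 11 higher and 4 lower (Apoe, Ms4a7, Gpnmb and Fcgr1). Other macrophage lists had none lower: the tissue-resident-like list had 2 of 5 higher, and the serous cavity and alveolar list 2 of 2. The latter list has 12 genes, most of them too low to be counted. Its 7 genes with at least 20 UMIs had a median log2 ratio to the other barcodes of 0.26 in Ad-MEM40 and 0.66 in Ad-Null. Markers of mature dendritic cells were lower in both libraries for 5 of 5 counted genes and those of cDC1 for 4 of 6, which for Ccr7 and Xcr1 the rule fixed. Irf8, the transcription factor that cDC1 need, was at 106 against 608 CPM in Ad-MEM40 and 72.0 against 616 CPM in Ad-Null.

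Markers of granulocytes and lymphocytes were near 0. The 8 eosinophil genes summed to 1.17 CPM in Retnla-high cells of Ad-MEM40 and 1.77 CPM in those of Ad-Null, and the granule genes Epx and Prg2 had 0 UMIs in both. Neutrophil genes summed to 12.8 and 18.5 CPM, B cell genes to 2.33 and 2.43 CPM, and T or NK cell genes to 0.778 and 0.442 CPM. Gata6, the factor of large peritoneal macrophages, had 3 UMIs in Ad-MEM40 cells and 0 in Ad-Null cells. Melanoma genes summed to 302 CPM in the cells of Ad-MEM40 and 86.5 CPM in those of Ad-Null, under the 1348 and 823 CPM of the other barcodes.

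Beside 3 other groups of cells the 30 genes kept apart. The groups held no Retnla-high cell, and a barcode that met several of their rules went to none. These groups were taken under the same caps as C1q-high (at least 30 UMIs of C1qa, C1qb and C1qc per 10000; 3443 Ad-MEM40 and 1306 Ad-Null cells), Ly6c2-high (at least 5 per 10000; 685 and 357) and Cd209a-high (at least 5 per 10000; 706 and 778). Each of the 30 genes was at least 1.5-fold higher in Retnla-high cells than in each group in both libraries, with median log2 ratios from 2.48 over Ad-Null C1q-high cells to 3.70 over Ad-Null Cd209a-high cells. C1q-high cells were the nearest: Lpl was at 619 CPM in them in Ad-MEM40 and 750 CPM in Ad-Null, and Fcrls at 59.6 and 45.3 CPM. Fn1 was at 126 and 191 CPM in C1q-high, 31.4 and 34.9 CPM in Ly6c2-high and 22.6 and 20.9 CPM in Cd209a-high cells. Ly6c2-high cells also had Ccr9, a marker of plasmacytoid dendritic cells, at 332 CPM in Ad-MEM40 and 735 CPM in Ad-Null. In Retnla-high cells Ccr9 was at 5.05 and 3.09 CPM. The Ly6c2-high values are therefore not those of monocytes alone. The 30 genes were chosen for their height in Retnla-high cells, so the direction is no support. Of the Retnla-high cells themselves, 43.8% in Ad-MEM40 and 21.1% in Ad-Null met the C1q-high cut, so the 2 are not separate by C1q.

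Single cells differed in the markers they carried. After thinning to 2000 UMIs, Fn1 was detected in 83.0% of 305 Ad-MEM40 cells and 90.6% of 171 Ad-Null cells, against 2.96% and 1.97% of cDC1 barcodes. Lyz1 was detected in 43.0% and 53.8%, against 1.44% and 1.03% of cDC1 barcodes. Ear2 was detected in 34.1% (28.8 to 39.7%) and 57.9% (50.1 to 65.4%), against 3.27% and 3.84%. Ccl24 was detected in 20.7% and 13.5% and Aldh1a2 in 22.3% and 21.6%, so most cells showed neither at this depth. The unthinned shares with a UMI were 81.2% and 84.8% for Fn1, 53.3% and 59.3% for Lyz1, 55.4% and 74.0% for Ear2, 36.9% and 30.9% for Ccl24, and 53.6% and 63.2% for Aldh1a2.

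Cells with more Retnla had more of several other markers and less Apoe. In Ad-MEM40 Fn1 was at 1481, 2045 and 3431 CPM from the lowest to the highest Retnla tertile, and in Ad-Null at 2031, 2417 and 2977 CPM. Lyz1 was at 754, 823 and 1672 CPM and at 857, 1097 and 2381 CPM. Aldh1a2 was at 91.3, 135 and 205 CPM and at 70.1, 121 and 176 CPM. Ccl24 was lowest in the middle tertile, at 214, 154 and 340 CPM and at 323, 110 and 336 CPM. Lpl rose in Ad-MEM40, at 1440, 1926 and 2553 CPM, but not in Ad-Null, at 2449, 2402 and 2339 CPM. Apoe, the lipid carrier apolipoprotein E, ran the other way, at 838, 678 and 294 CPM in Ad-MEM40 and 574, 211 and 93.1 CPM in Ad-Null. Mki67, a proliferation marker, was highest in the middle tertile in both, at 255 and 246 CPM. The lowest tertile of Ad-MEM40 had a median of 3251 UMIs per cell and the middle one 14406.5. In Ad-Null these medians were 5935.5 and 27015.5. The part of depth in these levels was not tested.

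Part of the cells also carried the complement genes of macrophages, and this part was larger in Ad-MEM40. Cells with at least 30 UMIs of C1qa, C1qb and C1qc per 10000, called C1q-rich here, were 165 of 377 in Ad-MEM40 (43.8%; 38.7 to 48.9%) and 43 of 204 in Ad-Null (21.1%; 15.7 to 27.3%). After thinning to 3000 UMIs the shares were 44.4% of 279 and 24.6% of 167. From 25 to 35 per 10000, near the cut, lay 29 and 20 cells. C1q also reached cDC1 barcodes, where it summed to 1303 CPM in Ad-MEM40 and 737 CPM in Ad-Null, beside 4006 and 2019 CPM in Retnla-high cells. By the same cut 11.8% and 6.09% of cDC1 barcodes were C1q-rich. The part of C1q RNA from other cells in the difference was not tested.

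C1q-rich cells had less of some other markers and more of others. Fn1 was at 1817 CPM in C1q-rich against 3033 CPM in the remaining Retnla-high cells of Ad-MEM40, and at 1744 against 2796 CPM in those of Ad-Null. Ear2 was at 169 against 416 CPM and 323 against 672 CPM, and Ccr2 at 331 against 615 CPM and 432 against 940 CPM. Ccl24 was higher in C1q-rich cells, at 322 against 169 CPM and 346 against 210 CPM, and Lpl was at 2059 against 2075 CPM and 2595 against 2323 CPM. Apoe, Ms4a7 and Ccl8 went with C1q: Apoe was at 1086 against 107 CPM in Ad-MEM40 and 848 against 57.1 CPM in Ad-Null, and Ccl8 at 375 against 29.8 CPM and 161 against 7.53 CPM. Retnla itself was at 8487 against 7039 CPM and 7400 against 6209 CPM, and Mrc1 at 997 against 850 CPM and 1253 against 868 CPM.

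Between the 2 libraries that held these cells, CD40 ligand virus and control virus, most genes were at like levels. Of 3096 genes counted in Retnla-high cells, 55 (1.78%) stood at least 1.5-fold above the Ad-Null level in Ad-MEM40 and 21 (0.678%) below it by as much. In the other barcodes 2.06% were higher and 0.948% lower. Retnla was at 7712 CPM in Ad-MEM40 cells (7636 to 7788) and 6492 CPM in Ad-Null cells (6418 to 6567). Fn1, Ccl24, Fcrls, F13a1, Plxdc2 and Abca9 had log2 ratios that round to between -0.04 and 0.04. For Ccl24 the ratio was 0.20 without the cell with most UMIs in each library. Among the 30 marker genes, those past 1.5-fold were Ear2, which was lower, and Ecm1 (extracellular matrix protein 1), which was higher at 234 CPM in Ad-MEM40 against 148 CPM in Ad-Null. The log2 ratios of Ear2 and Ecm1 were -0.96 and 0.65 in the cells and -0.51 and 0.99 in the other barcodes.

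Several of the genes higher in Ad-MEM40 cells were macrophage genes. Ccl8, a monocyte-attracting chemokine of macrophages, was at 190 CPM in Ad-MEM40 against 43.9 CPM in Ad-Null (log2 ratio 2.00), and Ms4a7, a macrophage membrane protein, at 81.4 against 18.5 CPM (1.88). Apoe was at 562 against 245 CPM (1.18), C1qa at 1333 against 609 CPM (1.12), and C1qc at 820 against 386 CPM (1.08). The macrophage list had 7 of 11 counted genes higher and none lower, with a median log2 ratio of 0.81, beside 0.68 in the other barcodes and 0.03 over all genes. Without the C1q-rich cells its median was 0.21, and C1qa was at 0.23, Ms4a7 at 0.90 and Ccl8 at 1.47. These cells were taken out by their C1q RNA, so the fall of C1qa and C1qc was set by the choice. The part of the C1q-rich cells in the rise of the list was not tested.

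Other genes among the 15 highest were Ccl5, at 74.5 CPM in Ad-MEM40 against 26.1 CPM in Ad-Null, and AW112010, an interferon-gamma-induced transcript, at 143 against 54.5 CPM. Tppp3, a tubulin-binding protein, was at 280 against 115 CPM, and Hspa1b, a heat shock chaperone, at 108 against 42.4 CPM. Spp1, Saa3, Aif1 and Gpnmb, all known from macrophages, were among the 15 too. Without the C1q-rich cells, Spp1 turned to a log2 ratio of -0.12 (1.21 with them) and Aif1 to -0.27 (1.06), and Saa3 was at 0.07 (1.23). Dct and Tyrp1, pigment enzymes of melanoma cells, ranked 1 and 3, at 102 against 16.6 CPM and 51.1 against 9.71 CPM. A single cell held 69.0% of the Ad-MEM40 Dct UMIs, 59.7% of those of Tyrp1 and 42.7% of those of Gpnmb. Without the cell with most UMIs in each library, the log2 ratio was 0.85 for Dct (2.31 with it), 0.86 for Tyrp1 (1.93 with it) and 1.10 for Gpnmb (1.68 with it).

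Of these 15 genes, 9 were also at least 1.5-fold higher in the other barcodes of Ad-MEM40, and 10 were so in cDC1 barcodes, which should lack most of them. Apoe, for instance, was at 482 CPM in cDC1 barcodes of Ad-MEM40 against 234 CPM in those of Ad-Null, and Ccl8 at 163 against 63.6 CPM. The part of RNA from other cells in these differences was not tested. Ccl5, Hspa1b, Spp1 and Aif1 were under 1.5-fold in cDC1 barcodes, with log2 ratios of 0.27, 0.35, 0.15 and 0.22, and Dct was just under at 0.58.

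**Figure D4:**
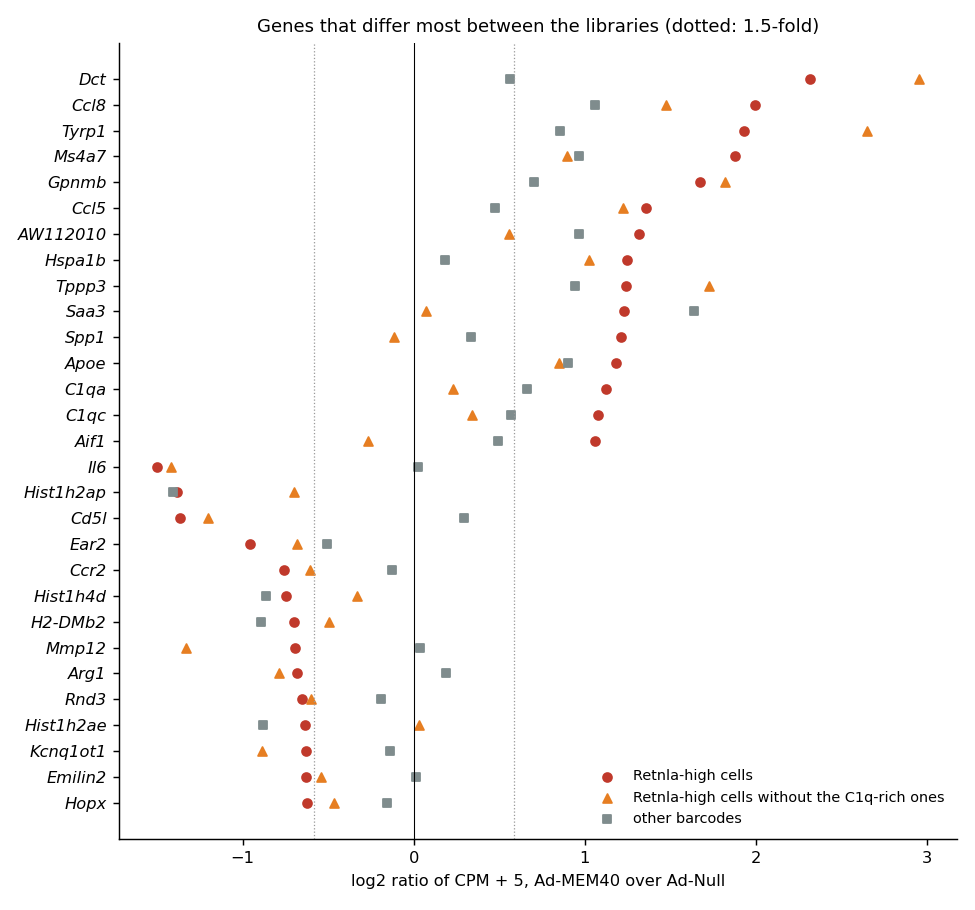
Log2 ratio of Ad-MEM40 over Ad-Null (x axis, CPM + 5) for the 15 genes highest and the 14 lowest in Retnla-high cells, in all Retnla-high cells (red circles), in those without the C1q-rich cells (orange triangles) and in the other barcodes (grey squares). Il6, Cd5l, Mmp12, Arg1 and Emilin2 lie to the left in the Retnla-high cells and at or right of 0 in the other barcodes. Mmp12 was lower in cDC1 barcodes (-0.67), which are not drawn. The 15 higher genes lie to the right of 0 in the other barcodes too.

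The genes lower in Ad-MEM40 cells were fewer, and several of them were not lower in the rest of the library. Il6, an inflammatory cytokine, was at 28.6 CPM in Ad-MEM40 against 89.9 CPM in Ad-Null (log2 ratio -1.50), and at 7.22 against 6.99 CPM in the other barcodes. After thinning, an Il6 UMI was seen in 5.57% (3.28 to 8.77%) of Ad-MEM40 cells and 12.9% (8.24 to 18.8%) of Ad-Null cells, and in 0.304% and 0.375% of cDC1 barcodes. Unthinned, these shares were 15.6% and 33.3% of Retnla-high cells. Cd5l, a secreted scavenger protein of macrophages, was at 23.3 against 68.0 CPM in Retnla-high cells and 7.46 against 5.16 CPM in other barcodes. Ear2 was at 301 against 589 CPM (-0.96), and Ccr2 at 483 against 819 CPM (-0.76), beside -0.51 and -0.13 in the other barcodes. Within C1q-high cells the log2 ratio was -1.01 for Ear2, -0.03 for Ccr2, -0.14 for Il6 and 0.02 for Cd5l.

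Mmp12, macrophage elastase, was at 274 CPM in Ad-MEM40 against 445 CPM in Ad-Null, and Arg1 at 139 against 227 CPM. Mmp12 was also lower in C1q-high cells (log2 ratio -0.63) and cDC1 barcodes (-0.67), where Arg1 was at -0.32 and 0.16. Single cells weighed on both: the top Ad-Null cell held 21.2% of the Mmp12 and 26.0% of the Arg1 UMIs, and Arg1 was at a log2 ratio of -0.55 without the top cells. With each cell weighing the same Mmp12 was at 0.17, and with a Retnla cutoff of 20 Arg1 was at 0.046. Emilin2, Hopx and Rnd3, the first a matrix glycoprotein and the others regulators in the nucleus and at the cytoskeleton, had log2 ratios of -0.63, -0.62 and -0.65. Hist1h2ap, Hist1h4d, Hist1h2ae and H2-DMb2 were lower by at least 1.5-fold in the other barcodes too. The histone genes belong to families of near-identical copies, so their counts are uncertain.

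The counts of the lists tied to CD40 and interferon signalling stand beside 1.78% higher and 0.678% lower over all counted genes. CD40 and NF-kB targets had 1 of 20 counted genes higher (Ccl4) and 1 lower (Il6), with a median log2 ratio of 0.07, beside 0.21 in other barcodes. Cd40 itself was at 23.9 CPM in Ad-MEM40 against 19.2 CPM in Ad-Null. Type I interferon response genes had 1 of 15 higher (Rsad2, viperin, at 110 against 62.7 CPM) and a median of 0.13, beside 0.12 in other barcodes. Interferon gamma associated genes had 4 of 13 higher and a median of 0.41, beside 0.42 in other barcodes. Cxcl9 and Cxcl10, T cell chemokines among the 4, were at 117 against 73.5 CPM and 221 against 137 CPM. Chemokines had 7 of 16 higher and a median of 0.48, beside 0.40 in other barcodes. MHC class II genes had 1 of 10 lower and a median of -0.02.

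The other marker genes were also read over all filtered barcodes of the interferon beta libraries, without choosing cells there. Of the 29 genes besides Retnla, 8 were at least 1.5-fold lower in Ad-mIFNB than in Ad-Null and none higher, where 2.44% of all counted genes were lower and 7.62% higher. In Ad-COMBO 10 were lower and 1 higher, where 6.26% of counted genes were lower and 13.4% higher. The medians were -0.35 and -0.40, beside -0.01 and -0.04 over all counted genes, and the same 29 had a median of 0.14 in Ad-MEM40 over Ad-Null. The genes were chosen for their height in the Ad-MEM40 and Ad-Null cells, and those under 50 CPM are in this count though not among all counted genes, so it is a description. The 5 CPM added to both sides also makes the ratios of genes at low CPM smaller. Ccl24, at 7.67 CPM in Ad-mIFNB against 13.2 CPM in Ad-Null, is not among the 8 for this reason. The comparisons of the 3 other libraries share the Ad-Null library.

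The genes were not lower to the same degree. F13a1 was at 11.1 CPM in Ad-mIFNB and 9.23 CPM in Ad-COMBO, against 56.6 CPM in Ad-Null, and Fn1 at 90.8 and 54.1 CPM against 179 CPM. Lyz1 was at 19.3 and 14.5 CPM against 62.1 CPM, and Ccl24 at 7.67 and 1.33 CPM against 13.2 CPM. Other genes of the 30 were under 1.5-fold from the Ad-Null level in both libraries after 5 CPM was added to each side. Ccl9 was at 306 and 342 CPM against 316 CPM, and Lpl at 269 and 265 CPM against 343 CPM. Aldh1a2 was at 9.04 CPM in Ad-mIFNB and 15.6 CPM in Ad-COMBO, against 9.41 CPM in Ad-Null. With the 5 CPM added, its log2 ratio in Ad-COMBO was 0.51. Its counting interval in Ad-COMBO (13.2 to 18.3 CPM) lay above that in Ad-Null (8.95 to 9.90 CPM). Such intervals leave out the spread between cells. Ms4a8a was the gene higher in Ad-COMBO, at 43.1 CPM, with 14.7 CPM in Ad-mIFNB and 9.89 CPM in Ad-Null. Levels over all barcodes mix the number of cells with the RNA per cell, which cannot be told apart here.

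**Figure D5:**
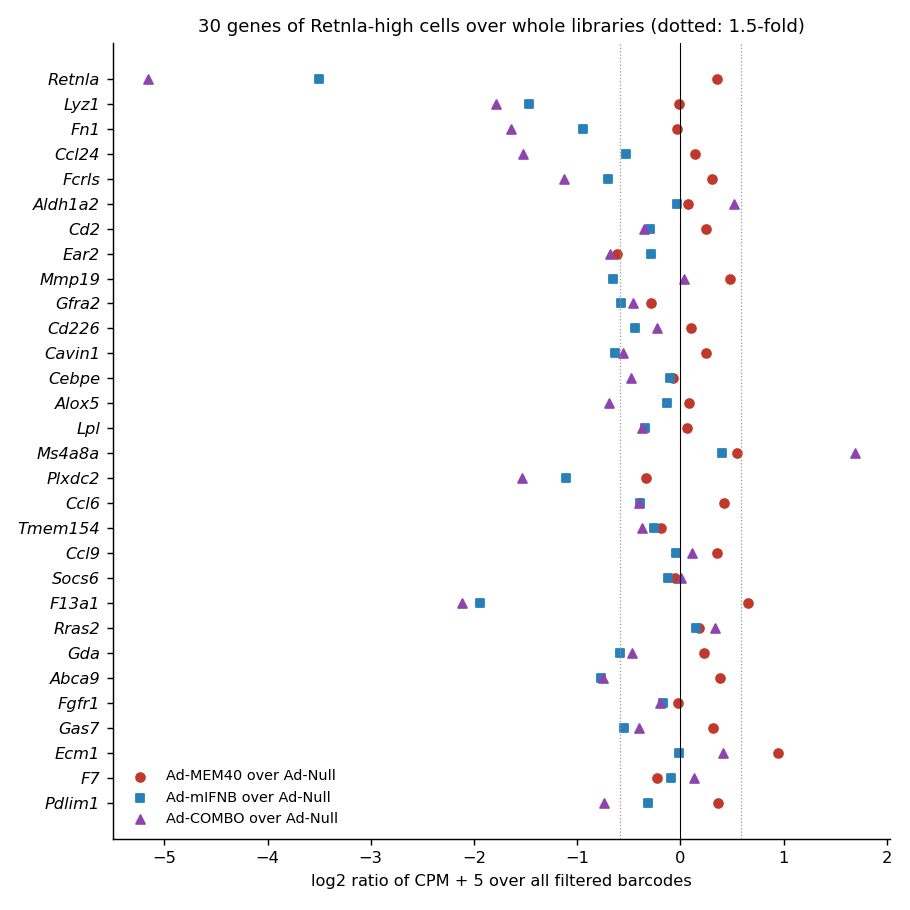
Log2 ratio over Ad-Null (x axis, CPM + 5, all filtered barcodes) of the 30 marker genes in Ad-MEM40 (red circles), Ad-mIFNB (blue squares) and Ad-COMBO (purple triangles), with dotted lines at 1.5-fold. Retnla, F13a1, Lyz1, Fn1 and Plxdc2 lie far to the left in both interferon beta libraries, while Ccl9 and Socs6 lie near 0.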

How the data were processed

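Single-cell 3' libraries were deposited as 4 matrices of UMI counts, which the authors made with Cell Ranger (version 3.0 per the submitters' processing notes, which also name Seurat 4.0 and mm10, and 6.0.0 per the file headers). The deposited counts were used as given, for 32285 genes. The members, gene lists and tests were chosen with earlier results of these data known. UMIs were summed over cells, scaled to 1000000 (CPM), and compared as log2 ratios after adding 5 CPM. Genes counted had at least 50 CPM in 1 side and 50 UMIs over both, and a difference was called at 1.5-fold. List medians cover members with at least 20 UMIs. Named genes are the 30 highest and 10 lowest by the smaller of the ratios to other barcodes in both libraries, the 15 highest and 15 lowest for Ad-MEM40 over Ad-Null (mitochondrial, ribosomal, globin, receptor-segment, sex-linked and unnamed genes left out), and list members. For Ad-MEM40 over Ad-Null 1 of the lower genes is not reported here. Of the 10 lowest, Il12b, Pmel, Ifi205, Ifitm1, Klrd1 and Gpr171 are not described further.

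Precision is set by the counts: intervals are exact 95% Poisson or Clopper-Pearson ones and cover counting error only. No test was made, since each treatment has 1 library and cells are not replicates. The ratio step was tested on simulated data with known changes. Alternatives were other Retnla cutoffs, stricter quality filters, doublet removal with Scrublet (scanpy 1.11.5; expected share of doublets where its automatic threshold found 0 or over double that share), thinning, other scalings and floors. Those on raw Retnla UMIs, marker number, C1q-rich cells, single top cells and members thinned to 3000 UMIs were added after seeing the data. Python 3.11.15, numpy 2.4.6, scipy 1.17.1 and pandas 2.3.3 were used.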

Additional observations from a re-analysis of the deposited data

How the results depend on the processing

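The near-loss of Retnla-high cells from both interferon beta libraries was seen under each rule tried, by which Ad-mIFNB ranged from 0.110 to 0.387% and Ad-COMBO held 0 cells. The Ad-MEM40 share was 3.63% at a cutoff of 5 Retnla UMIs per 10000, 1.59% at 20, 2.12% with at least 1000 genes and at most 5% mitochondrial UMIs, 2.72% without caps, 2.01% with at least 5 raw Retnla UMIs and 1.49% with at least 3 of the 5 other markers. The Ad-Null share moved likewise, to 2.96%, 1.60%, 2.02%, 1.97% and 1.75% for the same rules without the one on caps. At the cutoff of 5 the Ad-MEM40 share lay above the Ad-Null one, with counting intervals that did not overlap. Marker-defined cells moved to 1.97% in Ad-MEM40 and 2.40% in Ad-Null with the cutoff at the lower quartile, and to 1.00% in Ad-MEM40 without Lyz1. The 55 genes higher and 21 lower in Ad-MEM40 became 90 and 46 with each cell weighing the same, 108 and 37 at a floor of 20 CPM and 20 UMIs, 183 and 81 with members thinned to 3000 UMIs, and, for the lower genes, 13 at the cutoff of 5. The cause was not tested. Of the 30 genes named for Ad-MEM40 over Ad-Null, 19 stayed past 1.5-fold in the same direction without the C1q-rich cells, where Spp1 was at -0.12, Aif1 at -0.27 and Hist1h2ae at 0.030. C1qa and C1qc, which are part of that cut, were at 0.23 and 0.34. Mmp12 was at 0.17 with each cell weighing the same and Arg1 at 0.046 at a cutoff of 20. In the other alternatives 23 to 30 stayed past the fold. No paired analysis was possible because each treatment has 1 library and the labels give no pairing. No library could be left out for the same reason.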
